A study of Homo sapiens with 16 samples.

Results

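Autophagy genes are described here as they appear in the gene list of an MDA231 brain metastasis. The genes are those of the row named autophagy in a table of enriched Gene Ontology biological processes, less any gene that the row ER to Golgi vesicle-mediated transport also names. The genes were thus chosen by the authors' enrichment of that row. The rule left 53 of the 54 genes of the autophagy row, out of 2676 genes named for either cell line, and the gene it removed was VTI1A, a SNARE protein of the Golgi and endosomes. The rule rests on the same enrichment that the table reports, so the enrichment itself describes the choice and is not a separate result.

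The study grew brain metastatic derivatives of 2 human breast cancer lines in mouse brain for 30 days. MDA231 is a triple-negative line, and HCC1954 carries amplified ERBB2. All mice received 250 mg/kg 5-fluorocytosine, and the brains were taken 12 hours later for Flura-seq, in which cells that convert this compound incorporate it into new RNA, and the marked RNA is pulled down with an anti-BrdU antibody. The labels give 4 groups of 4 polyA RNA libraries from brain, namely input and immunoprecipitated (IP) RNA of each line. Each arm is thus a single derivative line, while the sources used here do not name the host strain, its immune state or the number of animals behind a library.

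No value per library enters any comparison below, so the depth and the spread between replicates are unknown here and no value has a replicate error. The tissue of origin could not be checked against expression markers for the same reason. The sources used here do not say how the listed genes were chosen, nor whether they were higher or lower in IP RNA. "Listed" below therefore carries no direction, for MTOR as for every other gene.

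Autophagy delivers cytoplasm, organelles and protein aggregates to the lysosome. The ULK kinase complex starts the process, a class III phosphatidylinositol 3-kinase complex marks the membrane, and ubiquitin-like conjugation systems attach LC3 and GABARAP proteins as the autophagosome grows. Cargo receptors tie cargo to those proteins, tethers and SNAREs fuse the vesicle with the lysosome, and the kinase MTOR holds the process back while nutrients are plentiful. The ESCRT machinery, which bends and cuts membranes away from the cytosol, acts in the formation of multivesicular bodies and also in the closure of autophagosomes.

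In the authors' deposited table the autophagy row held 54 of 133 background genes, a fold enrichment of 1.88 (exact 95% binomial interval computed here 1.41 to 2.45) with adjusted p = 0.00124. That row thus listed 40.6% of its background genes, where 21.6% of all 16792 background genes were listed (3626 genes). By unadjusted p it ranked 7 among the 314 rows of the MDA231 table. Of 6488 tested terms, 15 (0.231%) had an adjusted p under 0.05, which is 4.78% of the rows in the authors' deposited table. Nothing is read from this beyond the description, since the same values chose the genes.

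The 53 genes held a core of autophagy proteins, a block of ESCRT proteins and a varied remainder that was larger than either. Of the 53, 19 were on lists of core genes by stage, and 12 were ESCRT components or the ATPase that works with them. The other 22 included ubiquitin ligases and ubiquitin-binding proteins, a small GTPase, regulators of GTPases and G proteins, membrane proteins and enzymes. The grouping of the ESCRT and remaining genes was made after their names were seen.

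Initiation was represented by 3 of the 7 genes on its list: RB1CC1, the scaffold of the ULK complex, ATG101, a small subunit that stabilises the complex, and ATG9A, a membrane protein of the vesicles that seed the autophagosome. The kinases ULK1 and ULK2, their partner ATG13 and ATG9B were named in no row. RB1CC1 was also named in the rows cell cycle, macroautophagy and transcription, DNA-templated. ATG101 was otherwise named in macroautophagy alone, and ATG9A in protein transport alone.

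Nucleation had 4 of 18 genes in the autophagy row. They were PIK3C3, the lipid kinase of the complex, BECN1, its regulatory core, NRBF2, which binds the complex and modulates it, and WIPI1, a reader of the lipid product. PIK3C3 was otherwise named in protein phosphorylation and macroautophagy. PIK3R4, the protein kinase-like subunit that anchors the complex, was named in macroautophagy and 3 other rows but not in the autophagy row. BECN1 was named in 8 other rows, which ranged from defense response to virus and endocytosis to apoptotic process and response to hypoxia. NRBF2 was named in response to endoplasmic reticulum stress, a row at 1.91-fold with adjusted p = 0.0761 per the authors' deposited table. WIPI1 was named in a row of the same field, IRE1-mediated unfolded protein response (1.81-fold, adjusted p = 0.453 per the authors' deposited table).

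Elongation had 6 of 18 genes. ATG7, the E1-like enzyme that activates both ubiquitin-like proteins, was named in 7 other rows, among them protein ubiquitination, membrane fusion and cellular response to starvation. ATG10, the E2-like enzyme for ATG12, was named in 2 other rows and ATG5, the protein to which ATG12 is joined, in 3. Of the cysteine proteases that trim and release LC3 and GABARAP proteins, ATG4B was named in 3 other rows and ATG4A in 1. GABARAPL1 was the sole member of the LC3 and GABARAP family in the autophagy row, and the other 6 family members on the list were named in no row. ATG3, the E2-like enzyme for that family, and ATG16L1, which brings the ATG12 and ATG5 conjugate to the membrane, were named in macroautophagy and not in the autophagy row.

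Fusion with the lysosome had 3 of 18 genes in the autophagy row. VPS18 and VPS41 are subunits of the HOPS tethering complex, and EPG5 is a tether of autophagosomes and late endosomes. VPS18 and VPS41 were each named in 4 other rows, of which intracellular protein transport and vesicle-mediated transport named both, and EPG5 in endocytic recycling alone. A further 7 fusion genes were named elsewhere: the SNAREs STX17, SNAP29, VAMP7, VTI1B and YKT6, the HOPS subunit VPS16 and the lysosomal membrane protein LAMP2. STX17, VAMP7, VTI1B and YKT6 were named in the ER to Golgi row. Fusion therefore went from 3 to 10 of 18 genes once every row was counted.

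Cargo receptors had the smallest share of the 6 lists in the autophagy row, 1 of 20 genes (5%), close to MTOR control at 6.45%. In any row 4 of 20 (20%) were named, beside 15.8% of all background genes. How many of the 20 carry the autophagy annotation is not shown, so the low count is not read further. The gene in the autophagy row was OPTN, a receptor for ubiquitin-tagged mitochondria and bacteria. It was named in 5 other rows, including Golgi organization and negative regulation of I-kappaB kinase/NF-kappaB signaling. NBR1, a receptor for ubiquitinated protein, FUNDC1, a mitophagy receptor, and BCL2L13, a further mitochondrial receptor, were named in other rows. SQSTM1 (the receptor p62), CALCOCO2, TAX1BP1, BNIP3 and BNIP3L were named in none. Rows with mitophagy in their name numbered 0 in the MDA231 table, as did rows with lysosom in their name.

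Control by MTOR had 2 of 31 genes in the autophagy row, MTOR itself and SESN2, a stress-induced sensor that restrains MTOR complex 1. MTOR (ENSG00000198793; GRCh38 chromosome 1, 11106535 to 11262507, minus strand) was named in 15 other rows, more than any other autophagy gene. These included DNA repair and protein phosphorylation, the only 2 of the 15 past an adjusted p of 0.05, and 5 more rows for kinase activity or phosphorylation. Rows for positive regulation of neuron death and of glial cell proliferation were also among them, with adjusted p = 0.902 and 0.862 per the authors' deposited table. Of the 15 rows, 3 named another autophagy gene as well. SESN2 was named in fatty acid beta-oxidation, which was enriched 2.32-fold with adjusted p = 0.0448 per the authors' deposited table, and in glucose import.

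A further 12 genes of MTOR control were named outside the autophagy row, 38.7% of this longest list, beside 38.9% (7 of 18) for fusion. The row negative regulation of TOR signaling held 12 of 28 background genes at 1.98-fold, with unadjusted p = 0.0256 and adjusted p = 0.774 per the authors' deposited table. It named none of the 53 autophagy genes, but 5 of its genes were on the MTOR list. Of these, TSC1, TSC2 and TBC1D7 form the complex that shuts off the activator of MTOR. The others were DEPDC5, a subunit of the GATOR1 complex that restrains MTOR, and DDIT4, a stress-induced inhibitor. The lysosomal scaffold genes LAMTOR1, LAMTOR2 and LAMTOR3 and the GTPase gene RRAGB were named together in macroautophagy and in cellular protein localization. MLST8 was named in macroautophagy, regulation of cellular response to heat and regulation of GTPase activity, all of which also named MTOR. SESN1 and SESN3 were named in oxidation-reduction process. RPTOR, RHEB and TFEB were named in no row. WDR24, a subunit of GATOR2 that was not on the fixed list, was in the autophagy row and in no other.

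Over all 6 stages, 19 of 112 genes (17%) were in the autophagy row, which named 54 of the 16792 background genes. In any row there were 44 (39.3%), beside 15.8% of background genes named in any row. The lists were built from autophagy knowledge and the autophagy row is itself one of the rows, so these shares are counts and not an enrichment. Of the 93 stage genes absent from the autophagy row, 25 were named in another row and so were listed without being counted under that term. For the remaining 68 the table does not show whether they were listed. A gene in no row may still have been, since 980 of the 3626 listed genes are named in none.

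**Figure D1:**
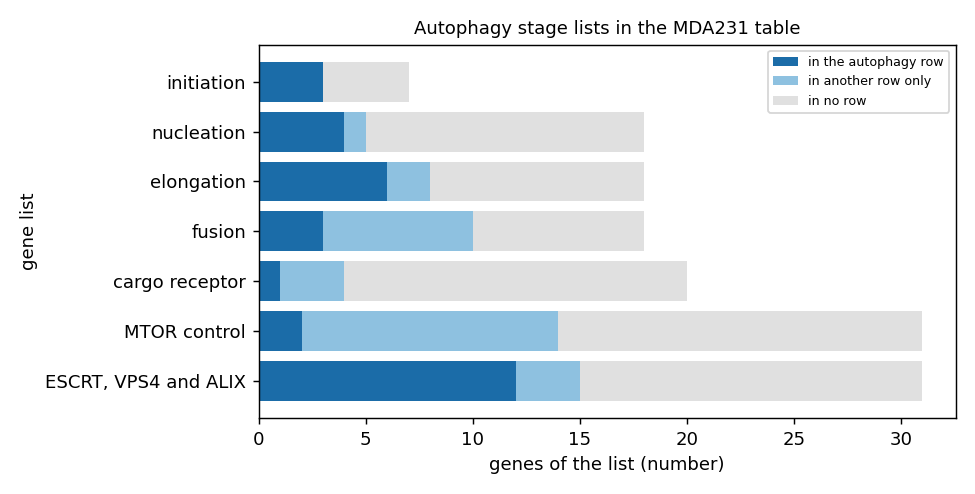
Bars give the number of genes of each list (x axis) that were in the autophagy row, in another row only, or in no row of the MDA231 table. Fusion, cargo receptors and MTOR control had most of their named genes outside the autophagy row (7 of 10, 3 of 4 and 12 of 14), while all 3 named initiation genes were in it.

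The ESCRT block spanned the whole order of the machinery. HGS and STAM2 form ESCRT-0, which gathers ubiquitinated cargo. MVB12A, VPS37A and VPS37C belong to ESCRT-I, and SNF8, VPS25 and VPS36 are the 3 distinct subunits of ESCRT-II, all 3 of which were in the autophagy row. CHMP2A, CHMP4A and CHMP4C are filament subunits of ESCRT-III, and VPS4A is the ATPase that takes the filaments apart. On a list of 31 ESCRT, VPS4 and ALIX genes drawn up after these names were seen, 12 were in the autophagy row and 3 more (CHMP1A, CHMP7 and IST1) in other rows. That made 48.4% of the list in any row, beside 15.8% of all background genes. Because the list was built around names already seen, this share is a description only. TSG101 and VPS28, the shared core of ESCRT-I, were named in none.

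All 12 ESCRT genes were named together again in multivesicular body assembly, where they were 12 of 15 genes (80%), the other 3 being CHMP1A, CHMP7 and IST1. That row listed 15 of 31 background genes, 2.24-fold (interval computed here 1.26 to 3.69) with unadjusted p = 0.00286 and adjusted p = 0.395 per the authors' deposited table. Viral budding via host ESCRT complex named 7 of the 12 among its 9 genes, at 1.89-fold with adjusted p = 0.954 per the authors' deposited table. Membrane invagination named CHMP2A, CHMP4A and HGS, with the autophagy gene FNBP1L, among its 5 genes (3.86-fold, adjusted p = 0.749 per the authors' deposited table). None of these 3 rows passed an adjusted p of 0.05.

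CHMP2A was named in 8 other rows and VPS4A in 7, more than the other ESCRT genes. CHMP2A appeared in nuclear envelope reassembly and exit from mitosis, and VPS4A in cell division and endosomal vesicle fusion. CHMP4A was named in 5 other rows, MVB12A, SNF8 and VPS37A in 4 each, CHMP4C, HGS and VPS37C in 3 each, and STAM2, VPS25 and VPS36 in 2 each. SNF8, VPS25 and VPS36 were named in transcription, DNA-templated, a row at 1.06-fold with adjusted p = 0.955 per the authors' deposited table.

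Macroautophagy, the other row with autophag in its name, drew on the core genes and not on the ESCRT block. It listed 31 of 76 background genes, 1.89-fold (interval computed here 1.29 to 2.68) with adjusted p = 0.0941 per the authors' deposited table. Of its genes, 12 were among the 53, which is 38.7% of its own genes and 22.6% of the autophagy genes, and all 12 were on the stage lists. Macroautophagy and multivesicular body assembly had 0 autophagy genes in common, and the full rows of 31 and 15 genes shared none either. The lack of overlap is thus not particular to the autophagy genes. The remaining 29 autophagy genes were in neither row, and 7 of them were on the stage lists: ATG4A, ATG9A, EPG5, NRBF2, SESN2, VPS18 and VPS41. The 19 further genes of macroautophagy included the regulatory subunits of the energy sensor AMPK (PRKAB1, PRKAB2 and PRKAG1) and the mitofusins MFN1 and MFN2, which join mitochondria. Such overlaps show which annotations the listed genes share and say nothing about their expression.

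**Figure D2:**
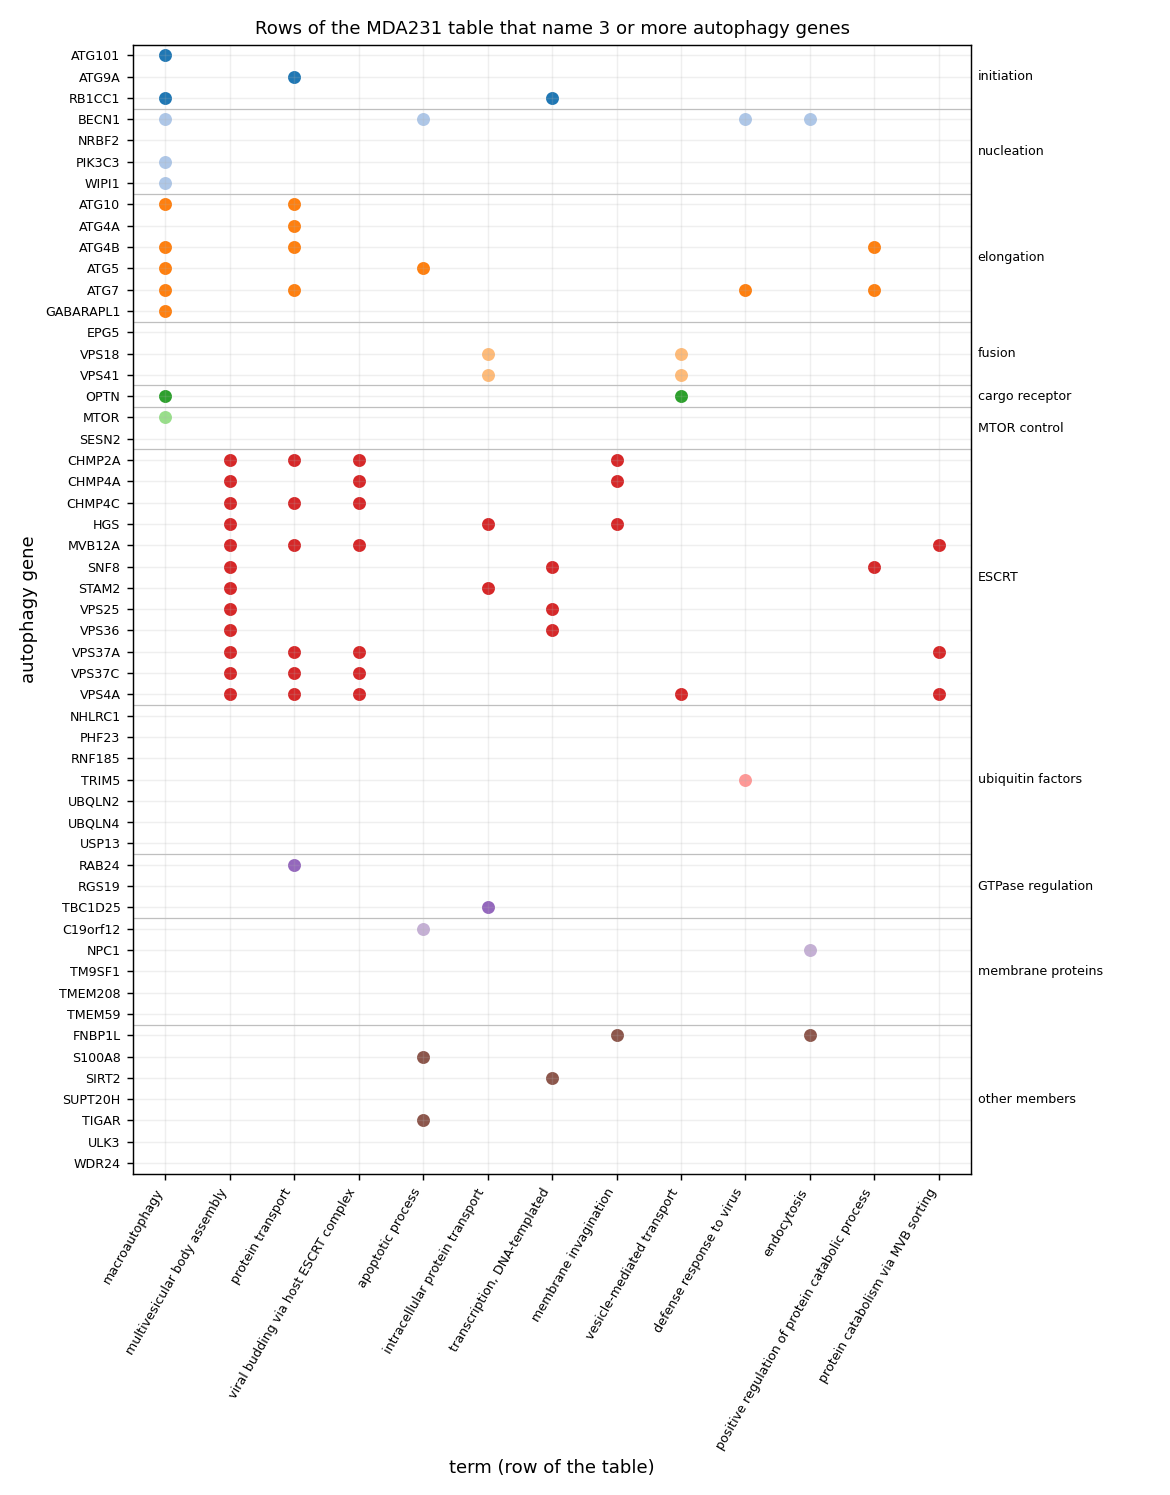
Each dot marks an autophagy gene (y axis, ordered by stage or group) named in a row of the MDA231 table (x axis, rows naming 3 or more of the genes; MVB, multivesicular body; colours mark the groups). The 12 genes in macroautophagy and the 12 in multivesicular body assembly do not overlap, and protein transport names genes of both.

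Protein transport was the largest meeting point of the groups. It named 12 autophagy genes, from elongation (ATG4A, ATG4B, ATG7 and ATG10), initiation (ATG9A), the ESCRT block (CHMP2A, CHMP4C, MVB12A, VPS37A, VPS37C and VPS4A), and RAB24, a small GTPase of late autophagic vesicles. Those 12 were 22.6% of the autophagy genes and 8.82% of a row of 136 genes enriched 1.59-fold with adjusted p = 1.22e-05 per the authors' deposited table. Intracellular protein transport named HGS, STAM2, VPS18, VPS41 and TBC1D25, and together the 2 transport rows took in 17 of the 53 genes. Of all 2646 genes named for MDA231, protein transport named 136 and intracellular protein transport 87. How many of the 2646 were in either row is not given here, so the 17 have no like count beside them. Whether the autophagy genes differ from the others in this was not tested.

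**Figure D3:**
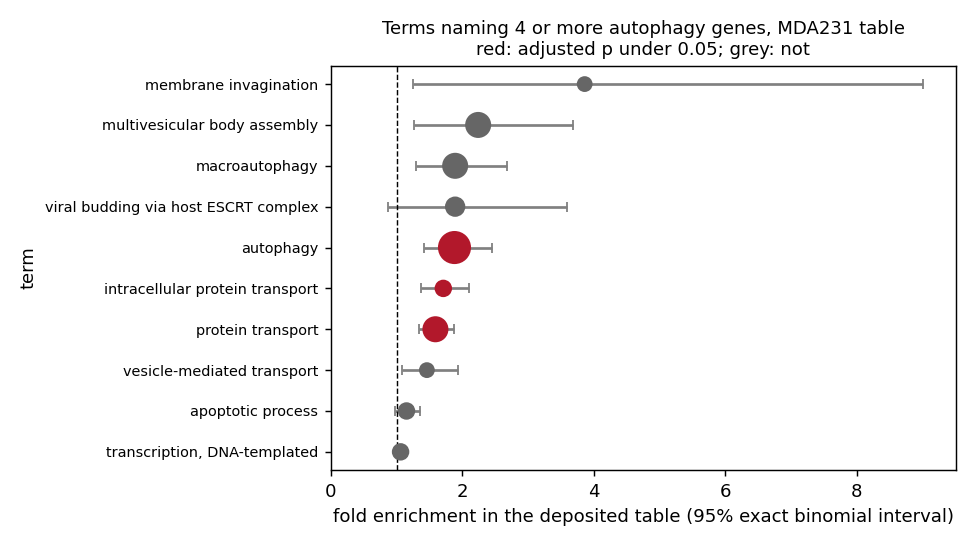
Points give the fold enrichment of each row naming 4 or more autophagy genes (x axis, linear) per the authors' deposited table, with the exact 95% binomial interval computed here as bars; point area grows with the number of autophagy genes up to 20, and the dashed line marks a fold of 1. Autophagy, protein transport and intracellular protein transport passed an adjusted p of 0.05 (red), while macroautophagy and multivesicular body assembly, at 1.89-fold and 2.24-fold, did not (grey).

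The interval of the autophagy fold overlapped those of macroautophagy, multivesicular body assembly and both transport rows, and no difference between rows was tested, since the rows share genes and a list. The intervals cover the draw of genes only and not the spread between libraries. The intervals also ignore the size of the term: no fold for this list can pass 4.63, so the upper end of 9 for membrane invagination, which rests on 5 of 6 background genes, lies beyond what is possible.

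Ubiquitin factors made up 7 of the remaining 22 genes. RNF185 is an ER and mitochondrial ubiquitin ligase, and it was named in 3 other rows, all for ubiquitination or degradation. USP13, a deubiquitinase that acts on BECN1, was named in 4 rows, among them protein K63-linked deubiquitination and protein stabilization. TRIM5, a capsid-binding ligase that restricts retroviruses, was named in 4 as well, including defense response to virus and interferon-gamma-mediated signaling pathway; the latter row listed 27 of 71 genes at 1.76-fold with adjusted p = 0.382 per the authors' deposited table. The others were NHLRC1, the ligase known as malin, PHF23, a regulator of a ligase, and UBQLN2 and UBQLN4, shuttle proteins for ubiquitinated clients, each in 1 or 2 other rows.

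SIRT2, a cytosolic deacetylase, was named in 9 other rows, second to MTOR, and these were rows for cell division, the cell cycle, deacetylation, proteasomal degradation and transcription. TIGAR, a fructose bisphosphatase induced by p53, was named in 6, among them cellular response to DNA damage stimulus, the row with the smallest p (1.87-fold, adjusted p = 9.41e-06 per the authors' deposited table). FNBP1L, a membrane-bending F-BAR protein, was named in 4 and TBC1D25, a GTPase-activating protein that binds LC3-family proteins, in 3. RGS19, a regulator of G protein signalling, and ULK3, a kinase related to ULK1, were each named in 1. S100A8, a calcium-binding protein abundant in myeloid cells, was named in 2, both of which concern apoptosis. Of the membrane proteins, NPC1, the lysosomal cholesterol exporter, was named in 2 other rows and C19orf12, a mitochondrial and ER protein, in 1.

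Other rows named an autophagy gene 161 times in all, over 85 of the 313 other rows. A median of 2 other rows named each gene, which makes 3 with the autophagy row counted, and the genes named in the table outside the autophagy row were in a median of 2 rows. Other rows were 5 or more for 9 genes, 2 to 4 for 28, 1 for 11 and 0 for 5. The 5 genes of the autophagy row alone were SUPT20H, a SAGA complex subunit that also acts in ATG9A traffic, the membrane proteins TM9SF1, TMEM59 and TMEM208, and WDR24. Counting only rows past an adjusted p of 0.05, 24 of the 53 genes stood in a second row, and 10 of 14 such rows had at least 1 of them. Those 24 were 45.3% of the autophagy genes. The same share was 21.9% of all listed genes outside the autophagy row and 30.2% of the genes named outside it. The difference was not tested. Of the 24, 17 were in protein transport or intracellular protein transport, so most of the count came through those 2 rows.

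**Figure D4:**
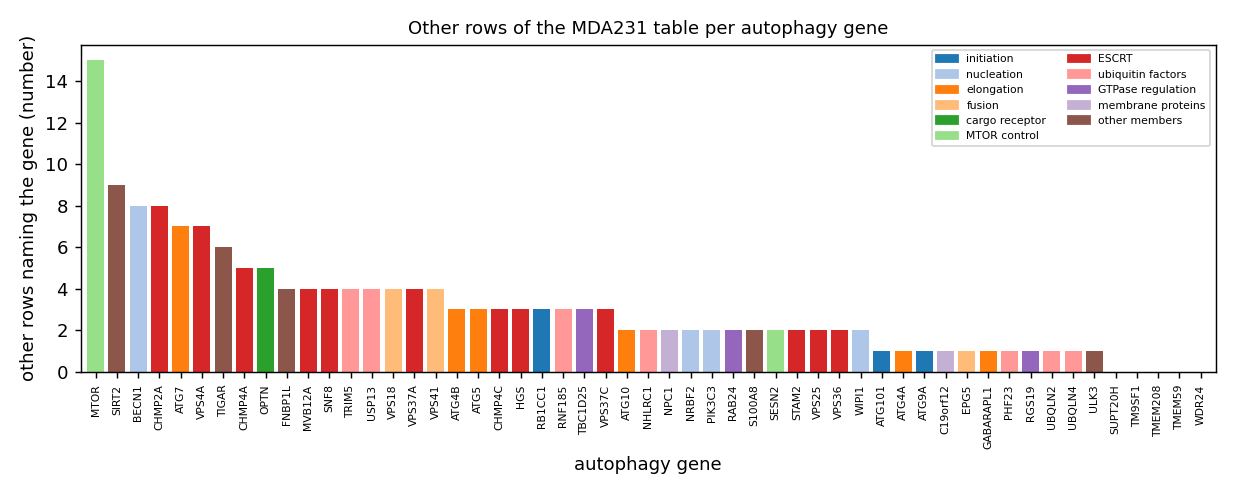
Bars give the number of other rows of the MDA231 table that name each autophagy gene (y axis), coloured by stage or group. MTOR stands at 15, SIRT2 at 9, BECN1 and CHMP2A at 8, and 5 genes at 0.

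Of the 53 autophagy genes, 0 were named for HCC1954, where 0.179% of background genes (30) were named at all. Its 37 rows included 0 with autophag, 0 with lysosom and 0 with TOR signaling in the name, and its smallest adjusted p was 0.746 per the authors' deposited table. The HCC1954 list held 66 genes with a term against 3626 for MDA231. The absence of a name in so short a list does not show that these genes behaved differently in HCC1954, and no test of a difference between the lines could be made from lists of names.

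The positions of the genes were read from GENCODE release 29 on GRCh38, the human build that the submitters' processing notes name. The 53 genes lay on 20 chromosomes, with at most 6 on any of them. Gene length ran from 1.16 kb (S100A8) to 305 kb (ATG10) with a median of 23.2 kb, beside a median of 35.7 kb over all genes named in the MDA231 table. Within 100 kb of each other lay a pair on chromosome 17, BECN1 (42810134 to 42833350, minus strand) and VPS25 (42773436 to 42779599, plus strand), 30.5 kb apart. The other such pair was CHMP4A (24209583 to 24213869) and TM9SF1 (24189143 to 24195687), both on the minus strand of chromosome 14 and 13.9 kb apart.

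Overlapping annotation could leave some of the listed names less certain, which was not tested. Of the 53 genes, 22 (41.5%) overlapped another protein-coding gene on either strand, beside 35% of all genes named in the table. Whole gene spans were compared here, not exons. MTOR overlaps ANGPTL7, BECN1 overlaps CNTD1 and PSME3, and TRIM5 overlaps 11 genes including TRIM22, a close relative. CHMP4A and TM9SF1 both overlap the same annotated gene, AL136295.1. Whether counting used strand is not given in the sources used here, so reads of such genes may not have been told apart.

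Promoter letters were looked up because TFEB, a transcription factor of lysosome and autophagy genes, is known to bind sites built on CACGTG. RefSeq windows on GRCh38.p14, from 250 bases before to 50 after each annotated start, were matched for 43 of the 53 genes (54 windows). CACGTG, which reads the same on both strands, was in a window of 6 of the 43 genes (14%), beside 13.3% of the 2195 genes of the MDA231 table with a window. By window the shares were 11.1% for the autophagy genes, 9.59% for genes of the table and 7.26% for all 35116 windows. The autophagy genes were thus close to the other genes of the table, and median GC content was 66.2% in their windows, 64.7% in those of genes of the table and 58.7% in all windows. The match and its flanks are printed 5′ to 3′ on the strand of each gene, with CACGTG in capitals, so that the bases next to the core can be compared.
CHMP4A, chr14:24213567-24213632, minus strand: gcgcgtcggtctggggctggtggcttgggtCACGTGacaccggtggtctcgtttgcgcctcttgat
NRBF2, chr10:63133078-63133117, plus strand: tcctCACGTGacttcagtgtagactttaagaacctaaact
RAB24, chr5:177303714-177303779, minus strand: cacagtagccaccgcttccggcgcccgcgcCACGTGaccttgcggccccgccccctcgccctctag
RGS19, chr20:64079706-64079768, minus strand: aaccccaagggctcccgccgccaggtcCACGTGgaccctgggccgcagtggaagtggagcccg
ULK3, chr15:74843293-74843358, minus strand: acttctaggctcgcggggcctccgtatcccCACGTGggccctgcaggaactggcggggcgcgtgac
VPS36, chr13:52450284-52450349, minus strand: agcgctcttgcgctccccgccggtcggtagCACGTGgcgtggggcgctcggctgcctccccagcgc

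The longer letters TCACGTG, on either strand and always overlapping the shorter motif, were in 3 of these genes: CHMP4A, NRBF2 and RAB24. That was 6.98% of the 43 genes, beside 8.06% of genes of the MDA231 table. The matches began 114 bases before the annotated start in CHMP4A, 246 in NRBF2, 30 in RAB24, 223 in RGS19, 172 in ULK3 and 75 in VPS36. Of the 6 genes only NRBF2 was on a stage list, and MTOR, BECN1, ATG5 and ATG7 had no match in their windows. A match describes letters in this window and is not evidence of binding.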

How the data were processed

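The deposited files are 2 tables of enriched Gene Ontology terms, 1 per line, from 16 libraries. The aligner STAR, the counter HTSeq and the human and mouse builds GRCh38 and GRCm38 appear in the submitters' processing notes. The sources used here give neither their versions, nor the enrichment tool, nor how genes came to be listed. Per the file headers, the authors give each row's gene identifiers, p-value, Bonferroni and Benjamini adjusted p-values, and fold enrichment, a ratio of the listed to the background share.

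The members and gene lists were chosen with earlier results of these data known. Identifiers were matched to symbols (53 of 53). No test was run: counts are set beside the background, and each fold interval is a 95% exact (Clopper-Pearson) interval of the row's share of listed genes, divided by the background share. The interval of the share was checked on simulated binomial draws, which it is built to cover. The division by the background share and the size of the term were not simulated. The number of tested terms was derived from the deposited Bonferroni and unadjusted p-values. Genes named were MTOR, every member on a stage list and the 15 others found in most rows; further genes were added by role after their values were seen. Python 3.11.15, pandas 2.3.3 and SciPy 1.17.1 were used.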

Additional observations from a re-analysis of the deposited data

How the results depend on the processing

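No paired analysis was possible because the tables carry no value per library, and leaving out replicates could not be run for the same reason. For the autophagy row the authors' deposited table also gives a Bonferroni p of 0.00865; as these values chose the genes, they say nothing about stability, and the fold from the number of identifiers could not differ because both counts were 54. Without the ER to Golgi rule the genes numbered 54. The number of stage genes went from 19 in the autophagy row to 44 when named in any row, since that alternative counts more rows. Other rows naming an autophagy gene were 85, or 68 with an unadjusted p under 0.05 and 81 with at least 10 background genes. CACGTG matched 6 genes in the full window and 6 in the bases before the start, and TCACGTG, a longer motif that contains the shorter, matched 3. Depth, direction and replicate spread are unknown here and limit every value.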
